A study of Homo sapiens with 2 samples.

Results

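The proteasome genes of cisplatin-treated control and FZR1 ko cells, labelled as the breast cancer line T-47D, were compared in the RNAseq data. The genes were chosen by name, as protein-coding genes whose NCBI symbol starts with PSMA, PSMB, PSMC, PSMD, PSME, PSMF or PSMG and a number. This gave 50 genes of the 23033 with a value in the table. Of these, 48 had at least 1 FPKM (fragments per kilobase of transcript, scaled to the mapped fragments of the library) in at least 1 library and were compared with the 13554 genes that passed the same limit. The immunoproteasome subunits PSMB8, PSMB9 and PSMB10 were set apart.

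The series holds 2 libraries of total RNA, 1 per group, and both groups had 2 µg/ml of cisplatin, a DNA-damaging platinum drug. The control is labelled WT and the other group FZR1 ko, a stable line made with CRISPR/Cas9 and grown from a single cell, so an effect of the knockout and a trait of that clone cannot be told apart. Cells without cisplatin were not analysed here. No difference in what follows has a replicate check, no test was possible and no p-value is given. Read numbers cannot be had from FPKM, and the sequencing depth is not known.

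The proteasome is the large protease that breaks down proteins tagged with ubiquitin. Its 20S core is a barrel of outer alpha rings, which gate the entry, and inner beta rings, which hold the cutting sites. The 19S regulator caps the barrel, recognises the ubiquitin tag, removes it, and unfolds the substrate with a ring of ATPases. FZR1 is an activator of the anaphase-promoting complex, a ubiquitin ligase that marks cell cycle proteins for this protease. The study used the proteasome inhibitor MG132 to follow the stability of p53.

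FZR1 itself had 12.3 FPKM in control against 10.1 FPKM in the FZR1 ko, and an mRNA level does not show whether a CRISPR/Cas9 line makes the protein. For the knockout in T-47D cells the paper gives a western blot. Of 6 luminal markers, KRT8 and KRT18 were high, with at least 552 FPKM, while ESR1, PGR, GATA3 and CDH1 were under 1 FPKM in both libraries. The mesenchymal marker VIM had 315 FPKM in control against 295 FPKM in the FZR1 ko. T-47D is known as a luminal line with estrogen receptor, and these values go against that label. Of 3 immune cell markers, which matter here because immune cells make much immunoproteasome, PTPRC had at most 0.09 FPKM and CD3E was listed at 0 in both libraries, while CD14 had 1.05 FPKM in control against 0.11 FPKM in the FZR1 ko. The summed level of these immune markers was 1.13 FPKM in control against 0.20 FPKM in the FZR1 ko. Of 2 fibroblast markers, COL1A1 had 5.13 and 6.25 FPKM, and COL3A1 had 0.21 and 0.13 FPKM. The part of these differences in the results was not tested, and in bulk RNA fewer cells of a type and less RNA per cell cannot be told apart.

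Most genes of the proteasome body were slightly lower in FZR1 ko, and the genes furthest from this were 2 lid subunits and 2 assembly chaperones. PSMD6 and PSMD7, scaffold subunits of the 19S lid, were more than 2-fold lower in FZR1 ko. PSMG1 and PSMG4, which help to build the alpha ring, were more than 2-fold higher. All 50 genes together made up 6639 FPKM in control against 5819 FPKM in the FZR1 ko, a ratio of 0.877, and 1.32% and 1.16% of the FPKM of all genes.

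Each log2 ratio below is the log2 of FZR1 ko over control, after 1 FPKM was added to both values, so that differences of low genes come out smaller. The median log2 ratio of the 48 genes was -0.15, and that of the 13554 genes was -0.0048. At a threshold of 2-fold, in FZR1 ko 2 of the 48 were lower and 2 higher, against 6.72% and 6.78% of all genes. At 1.5-fold, 4 were lower and 5 were higher, against 17.6% and 18.0% of all genes. At a log2 ratio of 0.32, 14 were lower (29.2%) and 7 were higher (14.6%), against 30.2% and 30.4% of all genes. Without a threshold, 29 of the 48 (60.4%) had the lower FPKM in FZR1 ko and 19 (39.6%) the higher, against 50.3% and 49.6% of all genes. The shares of proteasome genes past 2-fold (2 genes each way) and past 1.5-fold were below those of all genes. At a log2 ratio of 0.32 the share of lower genes was near that of all genes, and the share of higher genes was below it. The share with lower FPKM was above that of all genes.

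The comparison was repeated with the 5748 protein-coding genes that reached 10 FPKM in each library, which include 47 of the proteasome genes. Their median level (mean of the libraries) was 31.8 FPKM and that of the 47 was 89.7 FPKM, so the proteasome genes were still the more abundant. Of the 47, 2 were 2-fold lower and 2 were 2-fold higher, beside 4.26% and 2.33% of the 5748 genes. At 1.5-fold, 4 were lower and 5 were higher, beside 15.1% and 10.2%. Lower FPKM in FZR1 ko was found in 29 of the 47 (61.7%) and higher FPKM in 18 (38.3%), beside 53.3% and 46.6%. The medians were -0.17 for the proteasome genes and -0.037 for the 5748 genes. At 2-fold the counts were near the background. At 1.5-fold the share of lower genes was below it, and that of higher genes (10.6%) was near it.

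**Figure D1:**
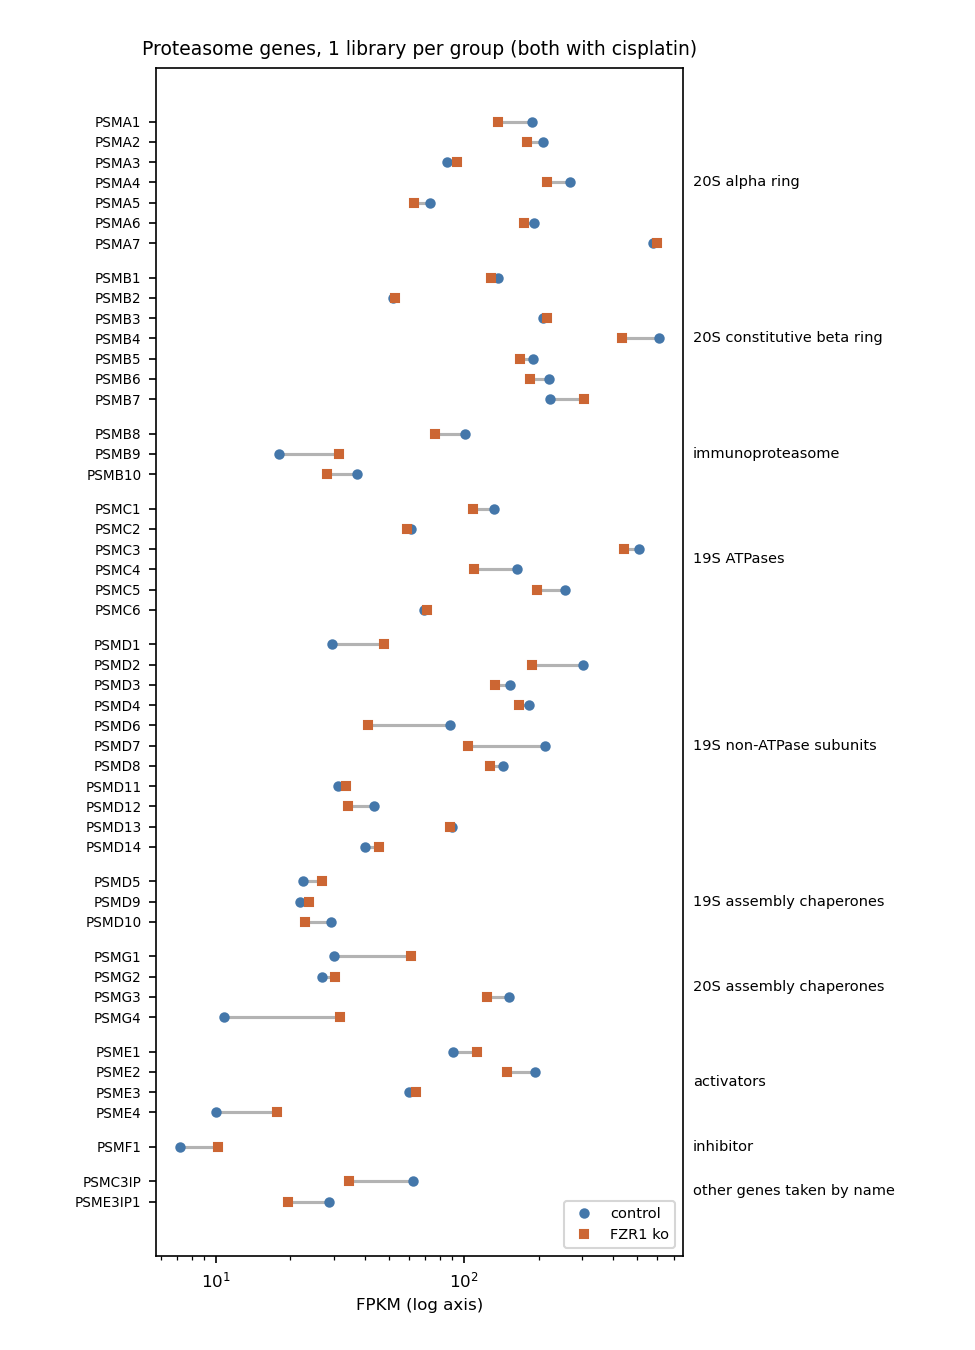
FPKM (log axis) of the 48 proteasome genes compared, in control (circles) and FZR1 ko (squares), 1 library each, ordered by their place in the proteasome. PSMD6, PSMD7, PSMG1 and PSMG4 have the widest gaps between the libraries, while most core subunits lie close together.

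The alpha ring genes PSMA1 to PSMA7 form the outer rings of the core. They ranged from 73.1 FPKM (PSMA5) to 577 FPKM (PSMA7) in control, and from 63.3 to 603 FPKM in FZR1 ko for the same genes. In FZR1 ko 5 of the 7 were lower and 2 were higher, beside 53.3% and 46.6% of the 5748 genes. The median log2 ratio of the 7 was -0.21. PSMA1 had the lowest ratio, with 189 FPKM in control against 137 FPKM in the FZR1 ko (-0.46). PSMA4 had 268 and 216 FPKM (-0.32), and PSMA3, at the other end, had 85.9 and 93.6 FPKM (0.12). PSMA2 and PSMA6 lay between them, with log2 ratios of -0.21 and -0.13. PSMA8, the alpha subunit of the testis, was listed at 0 in both libraries. The mRNA levels of the 7 genes compared spanned 7.89-fold in control and 9.52-fold in FZR1 ko.

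In the constitutive beta ring (PSMB1 to PSMB7), 3 genes had the higher FPKM in FZR1 ko and 4 the lower, with a median log2 ratio of -0.096. The highest of these in control, PSMB4, had 609 FPKM there and 433 FPKM in FZR1 ko (-0.49). PSMB7, which carries the trypsin-like site, went the other way, from 223 to 305 FPKM (0.45). The other catalytic subunits were both a little lower in FZR1 ko. PSMB5, the chymotrypsin-like subunit and the target of drugs such as bortezomib, had 190 and 168 FPKM (-0.18). PSMB6, the caspase-like subunit, had 221 and 185 FPKM (-0.25). Apart from PSMB4, the non-catalytic genes PSMB1, PSMB2 and PSMB3 had log2 ratios between -0.096 and 0.066. PSMB11, a subunit of the thymus, had 0.13 FPKM in control, and FZR1 ko lists it at 0. Summed over both rings, the core genes had 3233 FPKM in control against 2956 FPKM in the FZR1 ko.

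The immunoproteasome replaces the catalytic subunits in cells under interferon and in immune cells, and favours peptides that fit MHC class I. All 3 of its subunits were present, and they did not move together. PSMB8, which takes the place of PSMB5, had 101 FPKM in control against 76.8 FPKM in the FZR1 ko (-0.39). PSMB10, which takes the place of PSMB7, had 37.0 and 28.0 FPKM (-0.39). PSMB9, which takes the place of PSMB6, had 18.0 and 31.4 FPKM (0.77), a log2 ratio above that of 94.8% of the 5748 genes.

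Each pair of immune and standard subunits was also set side by side within a library, where the scaling of the library cancels. The ratio of PSMB9 to PSMB6 was 0.0814 in control and 0.169 in FZR1 ko, 2.08 times as high. That of PSMB10 to PSMB7 was 0.166 in control and 0.0920 in FZR1 ko, 0.554 times as high. The ratio of PSMB8 to PSMB5 was 0.532 and 0.457. In both libraries the standard subunit of every pair was the more abundant mRNA, and the direction of the shift differed among the 3 pairs.

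PSMB9 and PSMB8 lie in the MHC region of chromosome 6, in a row with the peptide transporter genes TAP2 and TAP1. In GRCh38.p14, TAP1 spans 32845209 to 32853704 and PSMB9 spans 32854192 to 32859851, 487 bases further on, and the pair is read in opposite directions from this stretch. TAP1, which carries peptides into the endoplasmic reticulum, had 138 FPKM in control against 70.7 FPKM in the FZR1 ko (-0.95), while PSMB9 was higher in FZR1 ko. TAP2 had 71.1 and 61.8 FPKM (-0.20). The interval is shown here because its flanking genes differed in opposite directions. The 200 bases from 250 to 51 before the start of PSMB9 lie at chr6:32853942-32854141 on the plus strand, as RefSeq gives them, with a CCAAT box and a TGACNNNGC match (on the minus strand) in capitals.

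PSMB9: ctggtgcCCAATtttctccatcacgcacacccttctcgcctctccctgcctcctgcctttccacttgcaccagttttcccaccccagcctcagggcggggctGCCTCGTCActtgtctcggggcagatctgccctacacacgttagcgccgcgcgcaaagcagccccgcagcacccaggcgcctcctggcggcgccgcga

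Among the regulators of these genes, IRF1 had 36.5 FPKM in control against 15.3 FPKM in the FZR1 ko (-1.20). NLRC5, a transactivator of MHC class I genes, had 3.11 and 5.45 FPKM (0.65). These genes and the peptide transporters gave 1 higher and 3 lower of the 4 reported here, with a median of -0.58, beside 49.6% and 50.3% of all genes. This list, too, was chosen with earlier results known.

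The ATPases PSMC1 to PSMC6 form the ring that unfolds the substrate. In FZR1 ko 5 of the 6 were lower and 1 was higher, beside 53.3% and 46.6% of the 5748 genes. The median log2 ratio of the ring was -0.24. PSMC4 had the lowest ratio, with 163 FPKM in control against 110 FPKM in the FZR1 ko (-0.56). PSMC5 had 255 and 197 FPKM (-0.37), and PSMC1 had 133 and 109 FPKM (-0.28). PSMC3, the most abundant, had 509 and 443 FPKM (-0.20). PSMC2 and PSMC6 hardly differed, with log2 ratios of -0.056 and 0.039. The sum of the ring was 1190 FPKM in control against 990 FPKM in the FZR1 ko.

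The widest spread within the 19S regulator was in its 11 non-ATPase subunits, from -1.08 to 0.68. In FZR1 ko 8 were lower and 3 were higher, beside 53.3% and 46.6% of the 5748 genes. The median of the 11 was -0.17. PSMD6 had 88.2 FPKM in control against 41.2 FPKM in the FZR1 ko (-1.08), and PSMD7 had 212 and 104 FPKM (-1.02). Their log2 ratios were above those of only 2.97% and 3.84% of the 5748 genes. Both values lie just past the 2-fold limit, and the next lowest of all proteasome genes was PSMC3IP at -0.84. The other lid genes differed less. PSMD12 had 43.6 and 34.1 FPKM (-0.35), PSMD8 had 143 and 127 FPKM (-0.17), and PSMD3, PSMD11 and PSMD13 had log2 ratios between -0.20 and 0.11.

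PSMD14, the deubiquitinase of the lid that works as a dimer with PSMD7, had 39.9 FPKM in control against 45.3 FPKM in the FZR1 ko (0.18). The ratio of PSMD7 to PSMD14 was therefore 5.31 in control and 2.28 in FZR1 ko. A like pattern was seen for PSMD2 and PSMD1, the large scaffolds of the 19S base. PSMD2 had 302 FPKM in control against 187 FPKM in the FZR1 ko (-0.69), while PSMD1 had 29.4 and 47.5 FPKM (0.68). Their ratio was 10.3 in control and 3.94 in FZR1 ko. In both pairs the more abundant mRNA was lower and the less abundant one higher in FZR1 ko, so the levels lay closer together. PSMD4, a ubiquitin receptor, had 182 and 167 FPKM (-0.12).

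The sum over the ATPase and non-ATPase genes of the 19S regulator was 2505 FPKM in control against 1998 FPKM in the FZR1 ko, a ratio of 0.798. For the constitutive core the ratio of the sums was 0.914. These sums are carried by the most abundant genes, and over the single genes the medians were closer, at -0.20 for the regulator and -0.16 for the core.

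**Figure D2:**
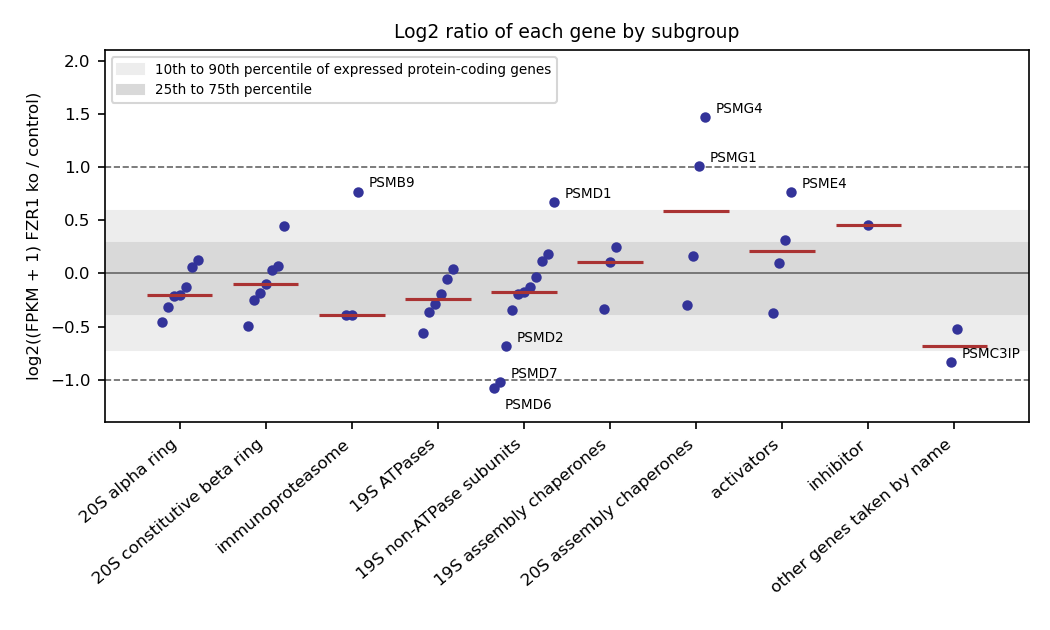
Log2 ratio of FZR1 ko to control for each of the 48 genes (points) by subgroup, with the median of the subgroup (line). Grey bands give the middle range of the 5748 protein-coding genes, from -0.38 to 0.29 (dark, quartiles) and from -0.72 to 0.59 (light, deciles), and dashed lines mark 2-fold. The constitutive core and ATPase genes lie within the light band, PSMG4, PSMG1, PSMB9, PSME4 and PSMD1 above it, and PSMD6, PSMD7 and PSMC3IP below it.

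Assembly of the core begins with chaperones that hold the alpha subunits in place until the ring is closed. PSMG1 pairs with PSMG2, and PSMG3 pairs with PSMG4. PSMG4 had 10.8 FPKM in control against 31.7 FPKM in the FZR1 ko, and its log2 ratio of 1.47 was above that of 99.7% of the 5748 genes and the highest of the proteasome genes. PSMG1 had 29.9 and 61.4 FPKM (1.01), above 97.8% of the genes and just past the 2-fold limit. Their partners showed no such difference. PSMG2 had 26.8 and 30.1 FPKM (0.17), and PSMG3 had 152 and 124 FPKM (-0.30). The ratio of PSMG1 to PSMG2 was 1.12 in control and 2.04 in FZR1 ko. That of PSMG3 to PSMG4 was 14.1 in control and 3.90 in FZR1 ko. PSMG4 has a canonical transcript of 785 bases, the shortest here after PSMB3, and at equal FPKM a shorter transcript is counted on fewer fragments.

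**Figure D3:**
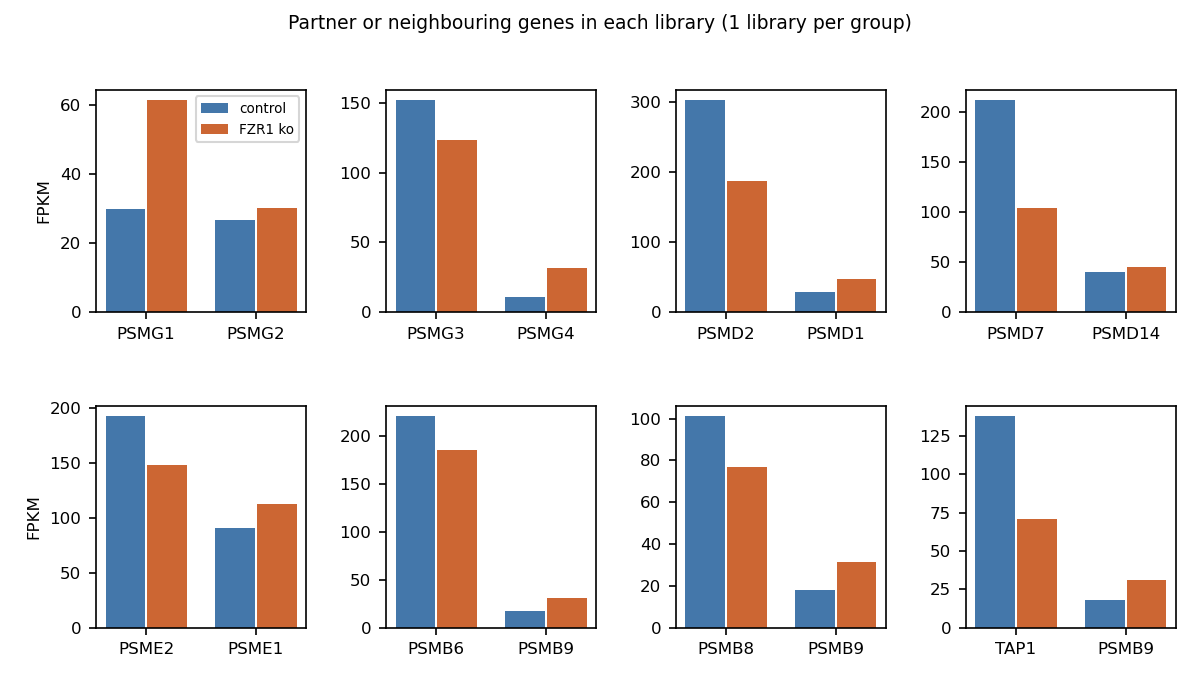
FPKM of PSMG1 and PSMG2, PSMG3 and PSMG4, PSMD2 and PSMD1, PSMD7 and PSMD14, PSME2 and PSME1, and of PSMB9 beside PSMB6, PSMB8 and TAP1, in control and FZR1 ko (bars from 0, 1 library each, no error bars). Except for PSMG1 and PSMG2, which are both higher in FZR1 ko, the genes of each pair shown differ in opposite directions, and the pairs to show were picked after their values were seen.

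The chaperones of the 19S base, PSMD5, PSMD9 and PSMD10, are not part of the finished particle. They were even in level, from 21.9 to 29.2 FPKM in control and from 23.0 to 26.9 FPKM in FZR1 ko. PSMD10, also known as gankyrin, had 29.2 and 23.0 FPKM (-0.33). PSMD5 had 22.5 and 26.9 FPKM (0.25), and PSMD9 had 21.9 and 23.7 FPKM (0.11). Of the 7 chaperones of both kinds, 5 were higher and 2 were lower in FZR1 ko, with a median log2 ratio of 0.17. Among the 31 constitutive core and regulator genes compared, 9 were higher and 22 were lower, with a median of -0.18. Of the 5748 protein-coding genes, 46.6% were higher and 53.3% lower.

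Activators can bind the ends of the core in place of the 19S regulator. PSME4, a large activator linked to histone breakdown and DNA repair, had 10.01 FPKM in control against 17.7 FPKM in the FZR1 ko (0.76). PSME3, the nuclear activator, had 59.9 and 64.3 FPKM (0.10). PSME1 and PSME2 join into 1 ring that interferon induces, and they went opposite ways. PSME1 had 90.8 and 113 FPKM (0.32), and PSME2 had 193 and 149 FPKM (-0.38). Their ratio was 0.470 in control and 0.763 in FZR1 ko, and they lie 4402 bases apart on chromosome 14. PSMF1, an inhibitor of the core, had 7.18 FPKM in control against 10.2 FPKM in the FZR1 ko (0.46), the lowest level of all genes compared.

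The naming rule also took PSMC3IP and PSME3IP1, which are named after proteasome genes as their binding partners and are not subunits. PSMC3IP, a cofactor of homologous recombination, had 62.5 FPKM in control against 34.5 FPKM in the FZR1 ko (-0.84). PSME3IP1, which binds the activator PSME3, had 28.5 and 19.6 FPKM (-0.52). Without them the median of the proteasome genes was -0.13 over 46 genes.

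For the 4 genes past the 2-fold limit, the 200 bases from 250 to 51 before the start are shown, as in the promoter windows from RefSeq (GRCh38.p14). The start is that of the canonical transcript, and for PSMG4, PSMD6 and PSMG1 RefSeq also has the gene begin further upstream, so that the stretches of PSMG4 and PSMD6 lie inside the gene and that of PSMG1 in part. Capitals mark matches on either strand to CCAAT, the box bound by NF-Y, and to TGACNNNGC, the core of the antioxidant response element, through which NFE2L1 is known to raise proteasome genes. PSMD6 lies at chr3:64023545-64023744 on the minus strand, PSMD7 at chr16:74296564-74296763 on the plus strand, PSMG1 at chr21:39183502-39183701 on the minus strand and PSMG4 at chr6:3258697-3258896 on the plus strand.
PSMD6: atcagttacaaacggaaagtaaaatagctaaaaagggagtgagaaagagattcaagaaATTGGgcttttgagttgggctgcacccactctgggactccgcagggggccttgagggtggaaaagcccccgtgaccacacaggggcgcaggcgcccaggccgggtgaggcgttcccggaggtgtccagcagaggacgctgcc
PSMD7: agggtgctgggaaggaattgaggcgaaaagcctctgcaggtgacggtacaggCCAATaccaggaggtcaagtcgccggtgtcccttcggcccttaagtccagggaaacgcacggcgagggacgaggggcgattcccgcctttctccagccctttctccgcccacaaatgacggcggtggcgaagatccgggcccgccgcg
PSMG1: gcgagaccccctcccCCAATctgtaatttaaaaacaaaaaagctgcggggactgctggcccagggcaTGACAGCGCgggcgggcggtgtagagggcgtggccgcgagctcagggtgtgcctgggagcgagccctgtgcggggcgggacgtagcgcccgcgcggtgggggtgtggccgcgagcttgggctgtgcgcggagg
PSMG4: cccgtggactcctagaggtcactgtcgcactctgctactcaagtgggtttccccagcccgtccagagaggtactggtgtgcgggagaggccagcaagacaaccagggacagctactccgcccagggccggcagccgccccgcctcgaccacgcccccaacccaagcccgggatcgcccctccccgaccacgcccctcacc

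In these stretches PSMD6, PSMD7 and PSMG1 each hold 1 CCAAT box, PSMG1 also holds 1 TGACNNNGC match, and PSMG4 holds neither. The search was extended to windows from 250 bases before to 50 bases after the start, which were at hand for 44 of the 50 genes. A TGACNNNGC match was found in 13 of the 44 windows (29.5%), against 13.6% of the windows of all 27305 genes and 15.3% of those of the protein-coding genes compared. CCAAT was found in 21 (47.7%), against 35.7% of all windows and 37.2% of those of the protein-coding genes compared. TTTGAA, the cell cycle homology region, was found in 5 (11.4%), which lies below the 15.4% of all windows and above the 9.51% of those of the protein-coding genes compared. A match describes the letters and not a bound site, and TGACNNNGC can overlap sites of AP-1 and CREB, which were not searched.

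Of the 42 genes compared that have a window, the 13 with TGACNNNGC had a median log2 ratio of 0.17, with 9 higher and 4 lower in FZR1 ko. The 29 without it had a median of -0.21, with 8 higher and 21 lower. Over all protein-coding genes compared that have a window, the 1461 with the match had a median of 0.0069 with 50.4% higher, and the 8077 without it 0.036 with 52.3% higher. The difference between the proteasome genes with and without the match has no test. Those with the match include PSMG1, PSMG2, PSMD1, PSMD5, PSMD9, PSMB9, PSME1 and PSME4, but also PSMC4, PSMD12 and PSME2, which were lower in FZR1 ko. With and without CCAAT the medians were -0.19 and -0.080 for the proteasome genes, beside -0.0042 and 0.052 for all protein-coding genes compared.

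The log2 ratio was also set against properties of the genes that the naming rule did not use, as a description across genes, which are not independent and share the same 2 libraries. Over the same 47 proteasome genes, Spearman's correlation of the log2 ratio with the genomic span of the canonical transcript was 0.38. It was 0.32 over the 5714 of the 5748 protein-coding genes that have a span. With the length of the spliced transcript the correlation was -0.0061 for the proteasome genes, and with its GC content it was -0.15. Longer spans thus tended to go with higher log2 ratios, among the proteasome genes as among these protein-coding genes.

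Of the 19 proteasome genes under 10 kb, 5 (26.3%) were higher in FZR1 ko, with a median of -0.30. Among the 5714 protein-coding genes with a span, 37.1% of those under 10 kb were higher, with a median of -0.16. From 10 to 25 kb, 4 of 15 (26.7%) were higher, beside 36.5%, and the medians were -0.12 and -0.15. From 25 kb on, 9 of 13 (69.2%) were higher, near the 62.6% of the protein-coding genes, and the medians were 0.11 and 0.15. The genes compared with the longest canonical transcripts on the genome, PSMD1 (116 kb), PSME4 (107 kb), PSMD14 (103 kb) and PSMB7 (61.98 kb), were all higher in FZR1 ko. By the span of the RefSeq gene, PSMA1 is the longest (139 kb), and it was lower (-0.46). Against the order by canonical transcript, PSMG4 (9.10 kb), PSMG1 (8.68 kb) and PSMB9 (5.66 kb) are short and were also higher. The bins of proteasome genes are small, with fewer than 20 genes each.

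Level went with the log2 ratio in the proteasome genes. Spearman's correlation with the mean FPKM of the libraries was -0.36 over the 47 genes and -0.049 over the 5748 genes, and the same FPKM values enter both measures. Of the 15 proteasome genes with a mean under 50 FPKM, 10 were higher in FZR1 ko, with a median of 0.17. Of the 16 from 50 to 150 FPKM, 5 were higher, with a median of -0.13. Of the 16 at 150 FPKM or more, 3 were higher (PSMA7, PSMB3 and PSMB7), with a median of -0.23. In the same bins of the 5748 protein-coding genes, 47.1%, 44.2% and 49.3% were higher, and the medians were -0.035, -0.064 and -0.0059. Level and place in the particle went together, since 6 of the 7 assembly chaperones but 4 of the 31 core and regulator genes had a mean under 50 FPKM.

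Proteasome genes are scattered over the genome, with 8 of the 47 on chromosome 17 and 7 on chromosome 14. On chromosome 17, 3 of 8 were higher in FZR1 ko, beside 50.9% of the 399 protein-coding genes of at least 10 FPKM there. On chromosome 14, 3 of 7 were higher, beside 42.4% of 165 such genes. All 3 on chromosome 16, PSMB10, PSMD7 and PSME3IP1, were lower, with a median of -0.52. On that chromosome only 20.4% of the 314 protein-coding genes of at least 10 FPKM were higher, and their median was -0.40, below the -0.037 of all chromosomes. Chromosome 15, which holds PSMA4, had a median of -0.27 with 34.8% higher. Chromosome 1, which holds 4 of the 47, had -0.18 with 34.4% higher. The highest median among the chromosomes with proteasome genes was 0.080, on chromosome 21, which holds PSMG1. The part of the chromosome in the values of PSMD7 and the other genes was not tested. On chromosome 3, which holds PSMD6, the median of 314 genes was -0.018.

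Genes that work with the proteasome but have other names were grouped into 5 lists, of which 26 genes are reported here. Of these 26, 13 were higher and 13 lower in FZR1 ko, with a median of -0.0050. In each direction 1 was past 2-fold, beside 6.72% (lower) and 6.78% (higher) of all genes. The medians of the single lists ran from -0.58 to 0.81.

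The remaining subunits and assembly factors gave 3 lower and 1 higher of 4, beside 50.3% and 49.6% of all genes. ADRM1, a ubiquitin receptor of the 19S regulator, had 471 FPKM in control against 343 FPKM in the FZR1 ko (-0.46). SEM1, a small lid subunit, had 216 and 209 FPKM (-0.049), and POMP, which completes the core, had 86.8 and 76.4 FPKM (-0.18). PAAF1, a chaperone of the 19S base, had 8.55 and 18.1 FPKM (0.996, just under the 2-fold limit).

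All 5 proteasome-bound enzymes and factors of the list were higher in FZR1 ko, with a median of 0.81, and 3 of them by at least 1.5-fold, beside 49.6% and 18.0% of all genes. The list was chosen with earlier results known. ECPAS, an adaptor that binds core and regulator, had 8.20 FPKM in control against 15.9 FPKM in the FZR1 ko (0.88). UCHL5, a deubiquitinase that ADRM1 recruits, had 29.3 and 53.1 FPKM (0.84). UBE3C, a ubiquitin ligase on the proteasome, had 13.3 and 24.1 FPKM (0.81). The deubiquitinase USP14 had 27.6 and 35.2 FPKM (0.34), and TXNL1 had 51.9 and 52.4 FPKM (0.013). The ratio of ADRM1 to UCHL5 was 16.1 in control and 6.47 in FZR1 ko.

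NFE2L1, also known as NRF1, is the transcription factor that raises proteasome genes when the proteasome is impaired. It had 110 FPKM in control against 66.8 FPKM in the FZR1 ko (-0.72). DDI2, the protease that cuts it into its active form, had 9.21 and 5.67 FPKM (-0.61). NGLY1, which removes its sugars, had 4.71 and 12.3 FPKM (1.22), and VCP, which pulls it out of the membrane, had 96.5 and 93.2 FPKM (-0.050). Of the steps of this route, the factor and its protease were thus lower and the glycanase higher. AKIRIN2, needed to bring proteasomes into the nucleus, had 27.2 and 15.1 FPKM (-0.81). The related factor NFE2L2 had 31.2 and 28.6 FPKM (-0.12).

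Among the 7 ubiquitin and shuttle genes reported here, 5 were higher and 2 lower, beside 49.6% and 50.3% of all genes. None of the 7 was past 1.5-fold, where 17.6% of all genes were lower and 18.0% higher. The stress-induced polyubiquitin gene UBB had 505 FPKM in control against 669 FPKM in the FZR1 ko (0.41). RPS27A, which supplies ubiquitin fused to a ribosomal protein, had 1245 and 1225 FPKM (-0.023). UBA1, the main activating enzyme, had 218 and 229 FPKM (0.075). The shuttles RAD23B, UBQLN1, UBQLN2 and UBQLN4 lay between -0.28 and 0.24.

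**Figure D4:**
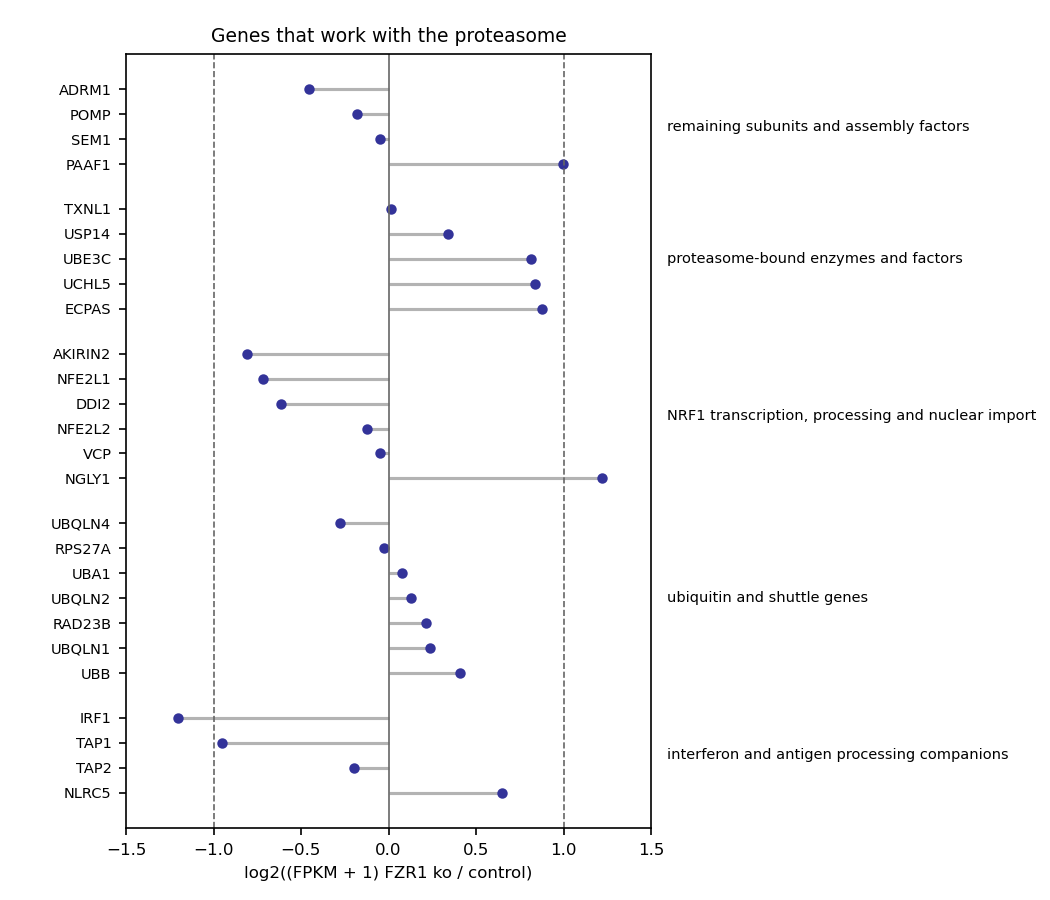
Log2 ratio of FZR1 ko to control for the 26 genes reported of the 5 lists, with dashed lines at 2-fold. The proteasome-bound enzymes all lie at or above 0, while NFE2L1, DDI2 and AKIRIN2 lie below it and NGLY1 lies furthest above.

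Shared reads could blur some of these values. RefSeq lists 52 pseudogenes with these names, and 21 of the proteasome genes have at least 1. None of the 52 has a row in the table, so their reads, if any, were not split off. Of the genes past 2-fold, PSMD6 overlaps PSMD6-AS1 by 4299 bases, for which no value was analysed here. It also overlaps PSMD6-AS2 by 1693 bases, which had 2.09 FPKM in control against 1.27 FPKM in the FZR1 ko, far below PSMD6. The sources used here do not say whether the reads were counted by strand.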

How the data were processed

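The authors sequenced total RNA on the BGISEQ-500 platform, aligned it to the transcriptome with Bowtie2 and RSEM (written RESM) on hg38 from UCSC, and deposited FPKM values per Entrez gene, to 2 decimals. The submitters' processing notes name Bowtie2 2.2.5, for which the paper gives another version, and also Trimmomatic 0.36 and HISAT2 2.1.0. The annotation version is not given in the sources used here. FPKM holds no counts, so depth is unknown. Of 24663 rows, 1630 have no value. Of the other 23033 gene IDs, 22925 matched a RefSeq symbol (GRCh38.p14, the same build as hg38).

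The log2 of FZR1 ko over control, with 1 FPKM added to both, was taken for the 13554 genes of at least 1 FPKM in at least 1 library. Counts past 2-fold and 1.5-fold and medians are given beside the same over all genes. Spans, transcript lengths and GC content come from GENCODE 44 canonical transcripts, and promoter windows from RefSeq, the first listed for each gene. The computation was tested on simulated data. All proteasome genes and the genes kept in the lists were named. The members and the lists were chosen with earlier results of these data known. Some genes of the lists are not reported here, for a reason unrelated to their values, and enter no count of a list. The properties of the genes, the partner pairs other than the catalytic subunits, the chromosomes and the levels were examined after the values were seen. Alternatives were other pseudocounts, filters, scalings and thresholds. Python 3.11.15, numpy 2.4.6, pandas 2.3.3, scipy 1.17.1 and matplotlib 3.10.9 were used.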

Additional observations from a re-analysis of the deposited data

How the results depend on the processing

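With 1 library per group no replicate could be left out, and no FPKM carries a replicate error. No paired analysis was possible because each group has 1 library and no result comes from a test. The number of proteasome genes past the threshold moved most, from 4 (2 lower, 2 higher) at 2-fold to 9 (4 lower, 5 higher) at 1.5-fold and 21 (14 lower, 7 higher) at a log2 ratio of 0.32, where 30.2% of all genes were lower and 30.4% higher. With a pseudocount of 5 FPKM it was 2 (1 lower, 1 higher), since PSMD7 was at -0.997 and PSMG1 at 0.93. The median of the proteasome genes stayed between -0.17 and -0.13 under pseudocounts of 0.1 and 5 FPKM, both other filters, rescaling, centring, the genes of at least 10 FPKM, and without PSMB8 to PSMB10 or without PSMC3IP and PSME3IP1. The number higher in FZR1 ko was 18 or 19 throughout. Of 335 values of single genes under these alternatives, 333 had the same direction and stayed on the same side of the 2-fold limit, 2 no longer reached it (PSMD7 and PSMG1, as given), and 0 turned. The medians of the subgroups kept their direction as well. The directions were largely set beforehand, since a pseudocount cannot turn a direction and the filters leave the value of a single gene unchanged. Rescaling and centring shifted all genes only a little. These counts therefore do not show how well a direction would repeat in other libraries. With RefSeq gene spans, an alternative chosen after the data were seen, Spearman's correlation with span was 0.37. The depth is unknown, so no counting error can be set beside the genes close to the 2-fold limit.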
